A study of Mus musculus with 38 samples.

Results

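Trp53 and 9 genes that its product is known to switch on were followed in mouse high-grade serous ovarian cancer (HGSOC) tumors and in the malignant cell lines that seeded them. The 10 genes were taken by symbol (Trp53, Cdkn1a, Mdm2, Ccng1, Phlda3, Eda2r, Zmat3, Bax, Bbc3 and Sesn2) from the 55487 genes of the deposited count tables, and each was found once in the tumor table and once in the cell line table. The RNA came from omental tumors grown after intraperitoneal injection of 60577 cells into female wild-type FVB mice or of HGS2 cells into female wild-type C57BL/6J mice, all 8 to 9 weeks old at injection. Treated mice received 3 doses of carboplatin (20 mg/kg) with paclitaxel (10 mg/kg), 7 days apart, beginning on day 21 after injection in 60577 and on day 49 in HGS2, and control mice received vehicle. Tumors were taken 1 day (TP1), 7 days (TP2) or 21 days (TP3) after the last dose, which was day 36, 42 or 56 after injection in 60577 and day 64, 70 or 84 in HGS2.

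The 60577 model gave 3 control and 3 treated tumors at TP1, 3 control and 4 treated tumors at TP2, and 4 treated tumors at TP3. HGS2 gave 3 and 3 at TP1, 4 and 3 at TP2, and 4 treated tumors at TP3. No TP3 control tumors exist in either model, so treatment and time cannot be told apart at TP3. Each untreated line was sequenced as 2 monocultures, and no treated cultures were sequenced. The models differ in mouse strain, injected line and treatment day together, so these cannot be told apart in a comparison of the models. The Trp53 genotype of the injected lines was not given in the sources used here, and the tumor RNA holds transcripts of wild-type host cells as well as of injected cells.

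p53, the protein encoded by Trp53, is a transcription factor that is held at a low level by the ubiquitin ligase Mdm2 and is stabilized after DNA damage, such as the crosslinks made by platinum drugs. It then binds response elements near its target genes and raises their transcription, which can halt the cell cycle, start apoptosis or aid repair. In HGSOC the gene is mutated in nearly all human tumors. Trp53 transcription itself is not the main point of control, since the protein is regulated mostly through its stability.

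The libraries held 17839635 to 49299442 expected counts in tumors (median 27358649) and 31633121 to 42461995 in lines. Levels are given as CPM, expected counts scaled to a common library total, after trimmed mean of M-values (TMM) scaling over all 38 libraries. Leukocyte markers were near 0 in the lines. In tumors macrophage markers were abundant, whereas 6 T cell markers summed to 6.02 to 205 CPM and 4 B cell markers to 2.04 to 608 CPM. The summed level of 7 macrophage markers was 2.49 and 4.93 CPM in the 60577 line, 1.23 and 3.78 CPM in the HGS2 line, and 783 to 4656 CPM in the 34 tumors, with Adgre1, C1qa and C1qb at 0 in every line library. Fibroblast markers were no such guide, since the 6 summed to 15598 and 33079 CPM in the HGS2 line, 1024 and 2254 CPM in the 60577 line and 5630 to 148877 CPM in tumors. Of the 8 epithelial markers, Cldn4 was at 0 in the HGS2 line, and the sum was 396 to 465 CPM there against 3020 to 3207 CPM in the 60577 line. In 3 HGS2 tumors (TP1 control replicate 3, TP2 control replicate 2 and TP3 treated replicate 2) 8 pancreas acinar genes summed to 58042 to 111911 CPM. The HGS2 TP3 treated replicate 1 tumor is absent from the study's tables and was left out of the tests, although its levels are printed. Control replicate 2 at TP2 of 60577 stood apart in several of the 10 genes, and results that rest on it are given with and without it.

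**Figure D1:**
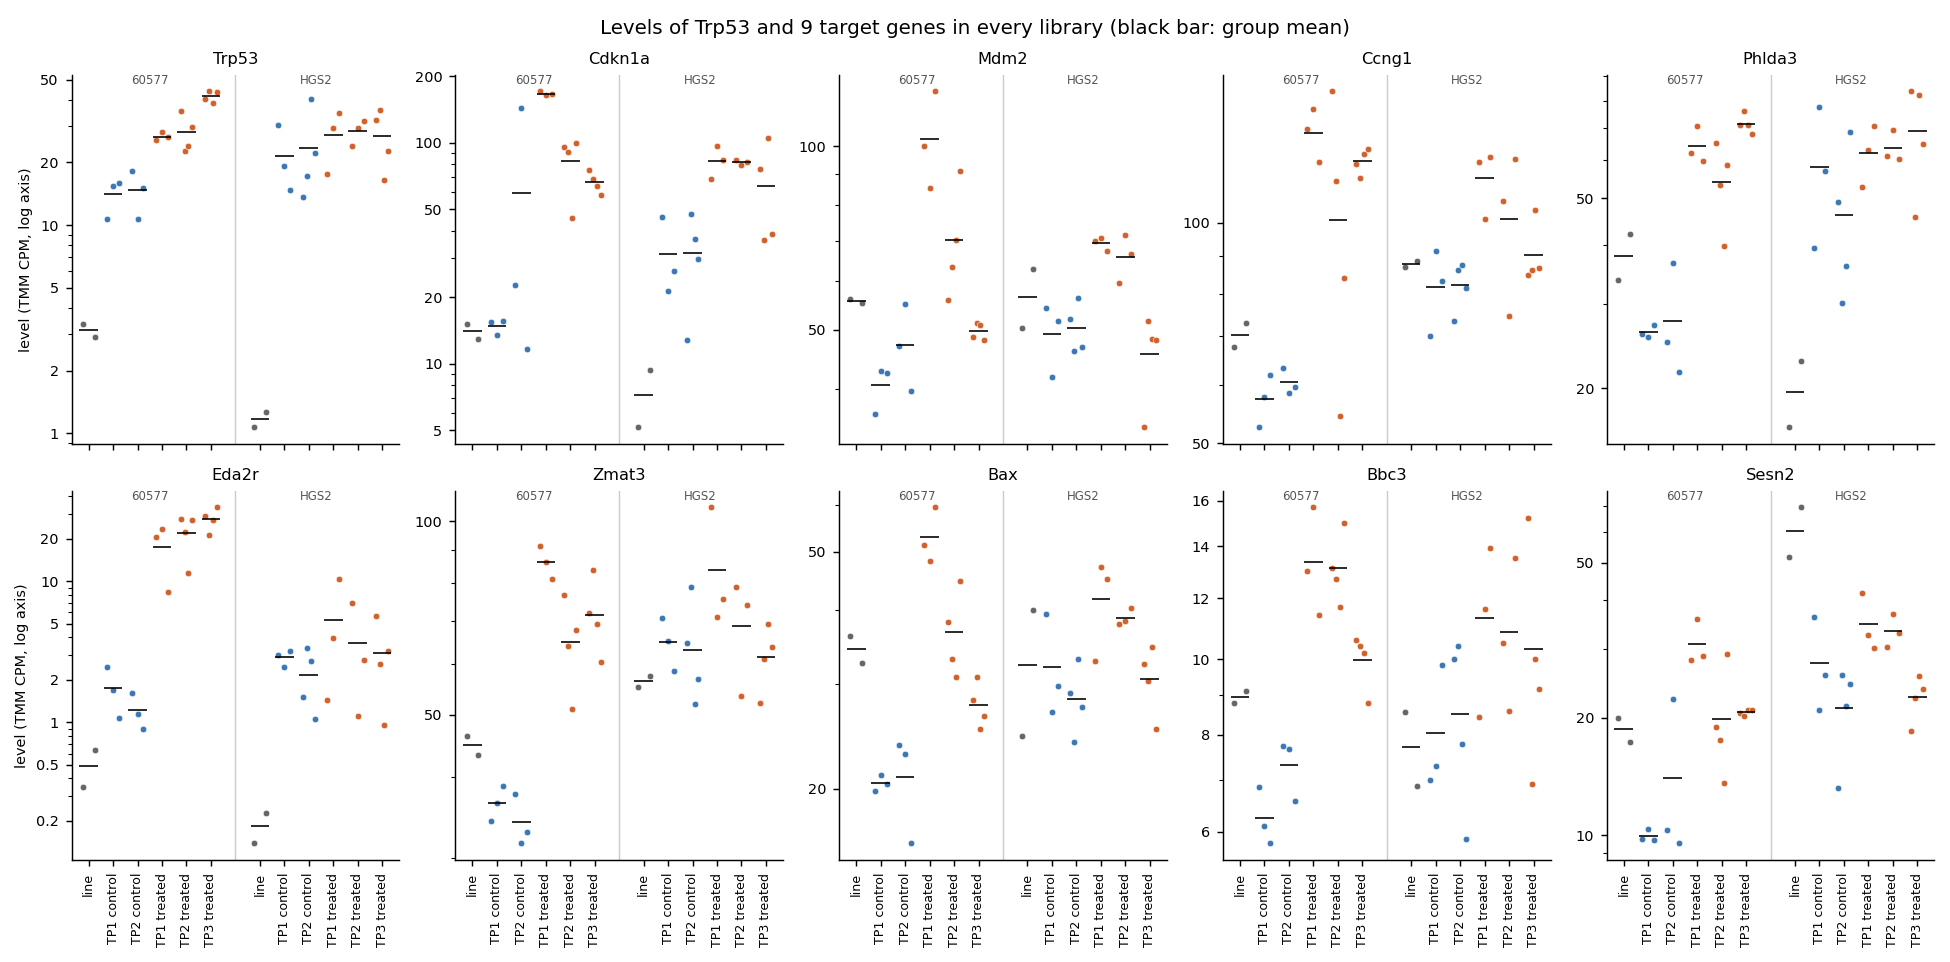
Levels of the 10 genes in every library, in TMM-scaled CPM on a log axis, with the 60577 model on the left and the HGS2 model on the right of each panel. Points are libraries (grey, cell line; blue, control tumors; orange, treated tumors) and black bars are group means. Trp53 and Eda2r lie below all tumors in both lines, and Cdkn1a in the 60577 TP2 controls holds 1 library at 144 CPM beside 22.8 and 11.6 CPM.

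Promoter sequence was read for the 10 genes because p53 binds response elements near its target genes. A p53 response element joins 2 decamers of 10 bases each, and the consensus p53 motif was searched on both strands with at most 2 mismatches over the pair, the inner C and G of each decamer intact, and up to 13 bases between its decamers. RefSeq promoter windows of GRCm38.p6, from 250 bases before to 50 bases after the start, were at hand for 9 of the 10 genes (12 windows, Zmat3 not included). Of these 12 windows 3 held such a pair, each in another gene, against 4.09% of all 32851 windows. No such pair was found in the windows of Trp53, Mdm2, Phlda3, Eda2r, Bbc3 or Sesn2, or in the other Cdkn1a window (chr17:29093519-29093818). Sequence outside the windows was not searched, so a window without a pair does not show that the gene lacks a response element. The pairs of Cdkn1a (no mismatch, a spacer of 12 bases), Ccng1 (1 mismatch, no spacer) and Bax (2 mismatches, a spacer of 1 base) are printed 5′ to 3′ on the gene's strand with 15 flanking bases, the decamers in capitals. The Cdkn1a stretch spans chr17:29090891-29090952 (plus strand), that of Ccng1 chr11:40755447-40755496 (minus strand) and that of Bax chr7:45467064-45467114 (minus strand), all upstream of the transcription start.
Cdkn1a: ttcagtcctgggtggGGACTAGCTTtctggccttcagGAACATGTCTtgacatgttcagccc
Ccng1: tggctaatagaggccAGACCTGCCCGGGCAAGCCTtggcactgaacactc
Bax: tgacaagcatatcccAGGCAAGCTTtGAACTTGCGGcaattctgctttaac
In the same Cdkn1a window the downstream decamer also pairs with the adjoining bases, with 1 mismatch and no spacer (chr17:29090928-29090947).
Cdkn1a, adjoining pair: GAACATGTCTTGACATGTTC
Pairs with at most 1 mismatch were in 0.627% of all windows and pairs without a mismatch in 0.0731%. A match describes the letters of a window and does not show that p53 bound there.

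Levels between genes were compared per kilobase of merged exons. Over the 34 tumors Phlda3 had the highest mean at 35.3 CPM per kb (SD 11.7), followed by Ccng1 at 27 (SD 7.85) and Bax at 20.8 (SD 6.29). Trp53 lay at 6.36 CPM per kb (SD 2.38) and Eda2r was lowest at 1.58 (SD 1.78). In the 60577 line Phlda3 also led with 24.4 CPM per kb and in the HGS2 line Ccng1 led with 25 CPM per kb, while Trp53 (0.775 and 0.288 CPM per kb) and Eda2r (0.0836 and 0.0312 CPM per kb) were the lowest of the 10 genes in both lines. Phlda3, Ccng1, Bax and Mdm2 were thus among the 5 highest genes in lines as in tumors, whereas Trp53 went from the 7th place in tumors to the 9th in lines. Per kilobase of the longest transcript Bax led in both lines, at 31.2 CPM per kb in 60577 and 29.3 CPM per kb in HGS2.

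The comparison of treated with control 60577 tumors at TP1 asked how the genes stood 1 day after chemotherapy. All 10 genes were higher in treated tumors by edgeR's quasi-likelihood test, and for all 10 every treated tumor lay above every control. Among all 16241 genes tested, 17.1% were higher and 16.2% lower at an adjusted p-value below 0.05, and in 26.0% every treated tumor lay above every control. The median log2 fold change was 1.32 over the 10 genes and -0.00 over all genes.

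Trp53 (chr11:69580359-69591873) was at 10.7, 15.4 and 16 CPM in the TP1 controls and at 25.5, 27.9 and 26.5 CPM in the treated tumors. The groups did not overlap, and the log2 fold change was 0.93 ± 0.20 (SE; adjusted p = 0.00245). Cdkn1a (chr17:29090976-29100727), which encodes the cyclin-dependent kinase inhibitor p21, was at 15.5, 13.5 and 15.6 CPM in controls and at 171, 164 and 166 CPM after treatment. All 3 treated tumors were thus at least 10-fold above each control, and the log2 fold change was 3.49 ± 0.66 (adjusted p = 0.00105). Mdm2 (chr10:117688875-117710758), the ligase that marks p53 for degradation, was at 36.4, 42.7 and 42.5 CPM in controls and at 99.9, 85.5 and 123 CPM in treated tumors. Its log2 fold change was 1.35 ± 0.17 (adjusted p = 6.96e-05).

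Ccng1 (chr11:40748552-40755311) encodes cyclin G1, which brings a phosphatase to Mdm2. It was at 52.6, 57.9 and 61.9 CPM in controls and at 134, 143 and 121 CPM in treated tumors, a log2 fold change of 1.21 ± 0.24 (adjusted p = 0.00172). Phlda3 (chr1:135766119-135769136), an inhibitor of Akt signaling, was at 26, 25.6 and 27.1 CPM in controls and at 62.1, 70.7 and 59.7 CPM in treated tumors, a log2 fold change of 1.29 ± 0.18 (adjusted p = 0.000133). The 3 controls of either gene lay close together. Zmat3 (chr3:32334792-32366014), an RNA-binding zinc finger protein, was at 34.2, 36.5 and 38.8 CPM in controls and at 91.4, 86.5 and 81.3 CPM in treated tumors, a log2 fold change of 1.25 ± 0.14 (adjusted p = 3.29e-05).

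Eda2r (chrX:97333840-97377216), a receptor of the tumor necrosis factor family that binds ectodysplasin A2, was near the detection filter in controls, at 2.48, 1.68 and 1.07 CPM. In treated tumors it was at 20.4, 23.5 and 8.34 CPM, so that the lowest treated tumor was still above the highest control. Its estimate was 3.32 ± 0.43 on the log2 scale (adjusted p = 6.66e-05), next to that of Cdkn1a in size.

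Of the apoptosis genes, Bax (chr7:45461697-45466898), which opens the outer mitochondrial membrane, was at 19.8, 21.1 and 20.4 CPM in controls and at 51.3, 48.2 and 59.4 CPM in treated tumors, a log2 fold change of 1.38 ± 0.16 (adjusted p = 3.29e-05). Bbc3 (chr7:16308393-16318205) encodes Puma, a BH3-only activator of Bax, and was at 6.85, 6.1 and 5.8 CPM against 13, 15.7 and 11.4 CPM, a log2 fold change of 1.10 ± 0.15 (adjusted p = 8.12e-05). Sesn2 (chr4:132492032-132510501), a stress-induced restraint on mTORC1, was at 9.81, 10.4 and 9.72 CPM against 28.1, 35.9 and 28.9 CPM, a log2 fold change of 1.64 ± 0.29 (adjusted p = 0.000708). The groups did not overlap for any of these 3 genes. Gm45808, which overlaps Bax on the same strand, reached 2.8 CPM in tumors, Gm12981 over Sesn2 reached 0.267 CPM and AC167363.2 over Cdkn1a 0.137 CPM, and counts shared with these partners are uncertain.

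At TP2, 7 days after the last dose, 8 of the 10 genes were higher in treated 60577 tumors, against 29.2% of all genes higher and 29.2% lower. Every treated tumor lay above every control for 7 genes (Trp53, Mdm2, Phlda3, Eda2r, Zmat3, Bax and Bbc3), against 25.1% of all genes. Eda2r was at 1.62, 1.14 and 0.898 CPM in controls and at 27.7, 22.3, 11.4 and 26.9 CPM after treatment, a log2 fold change of 4.15 ± 0.44 (edgeR, adjusted p = 5.34e-06). Trp53 was at 18.2, 10.7 and 15.1 CPM in controls and at 35.5, 22.7, 24 and 29.6 CPM in treated tumors (log2 fold change 0.92 ± 0.19, adjusted p = 0.000866). The 6 other genes past the threshold had log2 fold changes from 0.55 for Mdm2 to 0.95 for Phlda3, all below their TP1 values. For Ccng1, treated replicate 3 at 54.4 CPM was below the controls (58.6 to 63.4 CPM) while the other treated tumors were at 84 to 151 CPM.

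Cdkn1a and Sesn2 did not pass the threshold at TP2. Cdkn1a was at 22.8, 144 and 11.6 CPM in the controls and at 95.6, 90.9, 45.8 and 100 CPM in the treated tumors, so that control replicate 2 was above all treated tumors and the other 2 controls below them. The log2 fold change was 0.46 ± 0.56 (adjusted p = 0.497) with all controls and 2.26 (adjusted p = 7.97e-05) without that control. Sesn2 was highest in the same control (22.3 CPM, against 10.3 and 9.55 CPM), and its log2 fold change went from 0.48 ± 0.27 (adjusted p = 0.139) to 0.99 (adjusted p = 0.00265) without it. Phlda3 was at 36.6 CPM in that control and at 25 and 21.6 CPM in the others. Trp53 was lowest there, at 10.7 CPM.

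At TP3, 21 days after the last dose, 7 of the 10 genes were higher in treated 60577 tumors than in the TP2 controls, against 25.3% of all genes higher and 26.0% lower. Eda2r reached 28.7, 21.1, 27.3 and 33.3 CPM, a log2 fold change of 4.48 ± 0.44 (edgeR, adjusted p = 1.52e-06). Trp53 reached 40.3, 43.9, 38.5 and 43.8 CPM, above every other 60577 tumor, with an estimate (log2 fold change) of 1.51 ± 0.19 (adjusted p = 1.53e-05). Phlda3 was at 71.2, 76.1, 71.1 and 68.2 CPM (log2 fold change 1.37 ± 0.18, adjusted p = 1.77e-05), and Ccng1, Zmat3, Bbc3 and Bax were higher by 1.01, 1.07, 0.45 and 0.40 on the log2 scale. Mdm2 was back among the controls, at 48.7, 51.2, 50.8 and 48.1 CPM against 47, 55 and 39.6 CPM (log2 fold change 0.08 ± 0.16, adjusted p = 0.72). Cdkn1a, at 75, 68.7, 63.8 and 58.2 CPM, had a log2 fold change of 0.15 ± 0.56 (adjusted p = 0.842) with control replicate 2 and of 1.95 (adjusted p = 0.000141) without it. Sesn2 went likewise from 0.56 ± 0.27 (adjusted p = 0.0988) to 1.07 (adjusted p = 0.00145). The Bax result was lost (adjusted p = 0.177) without control replicate 3, and that of Bbc3 too (adjusted p = 0.0572).

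**Figure D2:**
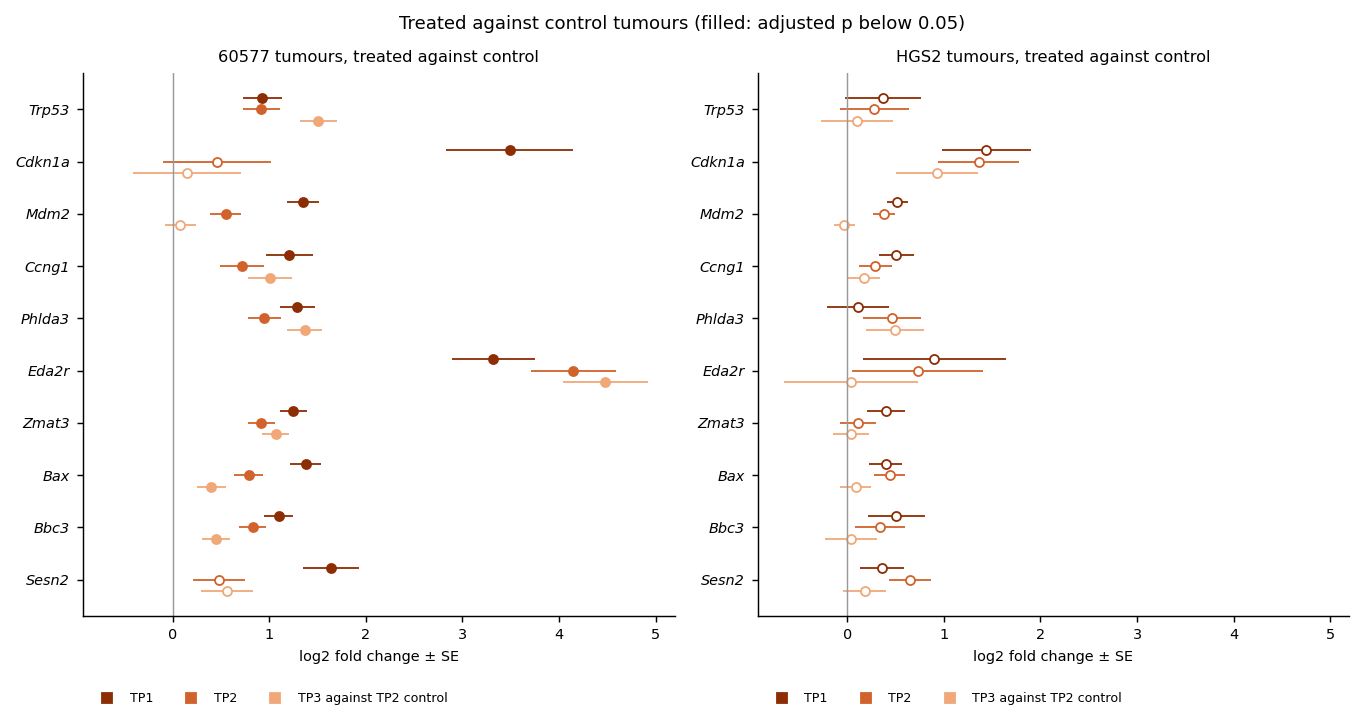
Log2 fold changes (± SE) of the 10 genes in treated against control tumors of 60577 (left) and HGS2 (right) at TP1, TP2 and TP3, with TP3 set against TP2 controls. Filled points passed an adjusted p-value of 0.05: all 10 genes at TP1 of 60577, 8 at TP2, 7 at TP3, and 0 in HGS2.

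Between the treated 60577 tumors the genes parted over time. From TP1 to TP2 3 genes fell, Mdm2 by 0.56 ± 0.16 (edgeR, adjusted p = 0.0269), Bax by 0.54 ± 0.15 (adjusted p = 0.0216) and Zmat3 by 0.42 ± 0.13 (adjusted p = 0.0385) on the log2 scale, and 0 rose, against 9.86% of all genes lower and 9.43% higher. Cdkn1a went from 164 to 171 CPM at TP1 to 45.8 to 100 CPM at TP2 without overlap, with an estimate (log2 fold change) of -1.01 ± 0.55 (adjusted p = 0.191), and of -1.01 (adjusted p = 0.0101) without TP2 control replicate 2. From TP2 to TP3 Trp53 (0.59 ± 0.17, adjusted p = 0.0173) and Phlda3 (0.42 ± 0.16, adjusted p = 0.0492) rose while Mdm2 (-0.48 ± 0.15, adjusted p = 0.0242), Bax (-0.39 ± 0.14, adjusted p = 0.0392) and Bbc3 (-0.37 ± 0.12, adjusted p = 0.0319) fell, against 16.2% of all genes higher and 18.8% lower. Eda2r did not pass the threshold in either step (log2 fold changes 0.34 ± 0.35 and 0.34 ± 0.32). From TP1 to TP2, 0 of the 10 genes passed without TP1 treated replicate 1, TP1 treated replicate 3 or TP2 treated replicate 3, and 5 passed without TP2 control replicate 2. From TP2 to TP3, 1 to 3 passed without TP1 control replicate 3, TP2 treated replicate 3 or 4, or any of the 4 TP3 tumors. Control tumors of TP2 and TP1 differed in 0 of the 10 genes and in 0 genes overall (0% higher and 0% lower by edgeR), with 1501 genes at an unadjusted p-value below 0.05, 0 by limma-voom and 107 by DESeq2.

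Cell type markers moved with treatment in 60577. The sum of 8 epithelial markers was 1085 to 1908 CPM in the 6 controls and 125 to 407 CPM in the 11 treated tumors, and that of 6 proliferation markers 516 to 686 CPM against 73.2 to 213 CPM, without overlap. Over all 60577 controls against all treated tumors the other sums overlapped. That of 6 T cell markers was 6.02 to 24 CPM against 19.6 to 128 CPM, that of 4 B cell markers 2.04 to 15.7 CPM against 10.8 to 257 CPM, and that of 6 adipocyte markers 6.61 to 20.9 CPM against 15.2 to 1728 CPM, and macrophage markers were at 783 to 1625 CPM against 1094 to 3964 CPM and fibroblast markers at 5630 to 9839 CPM against 7726 to 26998 CPM. Within a time point, treated tumors lay above all controls in the T cell and adipocyte sums at TP1 and TP2. The macrophage and fibroblast sums did so at TP1 only and the B cell sum at TP2 only. By edgeR 6 of 6 adipocyte markers were higher at TP1 and at TP2, against 17.1% and 29.2% of all genes. Of 6 T cell markers 2 and 5 were higher, and of 4 B cell markers 0 and 4. Of 7 macrophage markers 2 and 2 were higher, and of 6 fibroblast markers 5 and 3. In these lists 0 genes were at 0 throughout either group. The part of these cell types in the levels of the 10 genes was not tested, and in bulk RNA fewer cells of a type and less RNA per cell cannot be told apart.

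**Figure D3:**
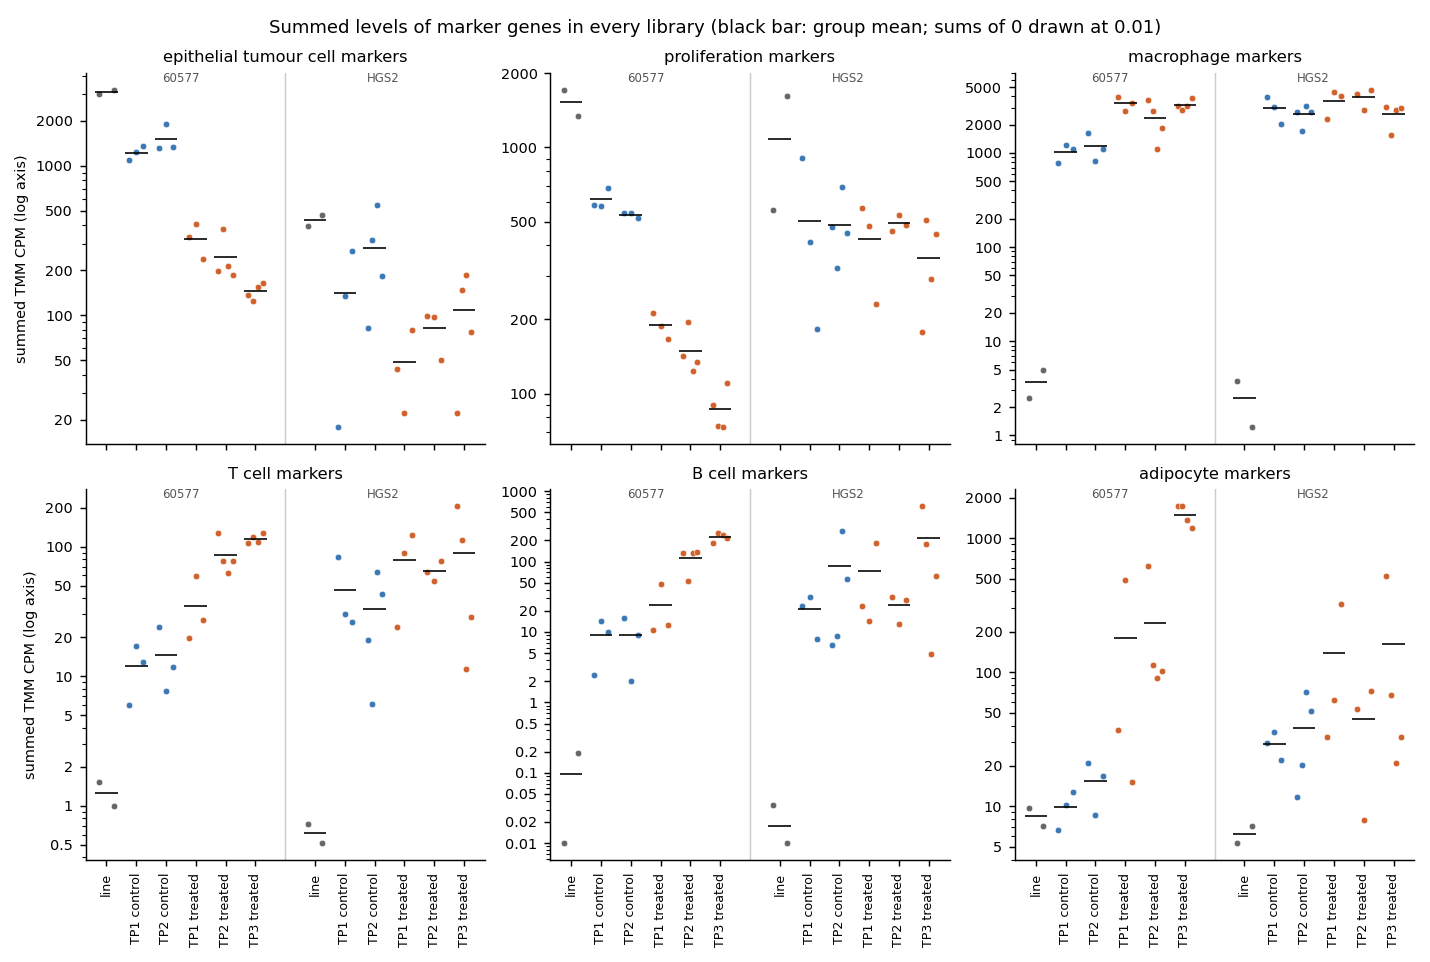
Summed levels of the markers of 6 cell types or states in every library, in TMM-scaled CPM on a log axis (grey, cell line; blue, control tumors; orange, treated tumors; black bars, group means). In 60577 the epithelial sums of treated tumors (125 to 407 CPM) lie below those of all controls (1085 to 1908 CPM), and treated and control HGS2 tumors overlap in each panel.

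In HGS2, 0 of the 10 genes and 0 of all 16241 genes passed the threshold of edgeR at TP1, TP2 or TP3 (0% in each direction). At an unadjusted p-value below 0.05 there were 413 genes at TP1, 1233 at TP2 and 406 at TP3, among them 4, 4 and 1 of the 10. limma-voom called 0 genes at each time, and DESeq2 called 1, 9 and 5. The estimates of all 10 genes were above 0 at TP1 and TP2, with medians of 0.46 and 0.41 on the log2 scale against 0.00 and -0.02 over all genes. Counts were simulated with 100 genes changed by 1 and 100 by 2 on the log2 scale. The HGS2 fits recovered 10% of the genes changed by 1, at TP1 and at TP2. The 60577 fits recovered 51% and 63% of such genes, and the test of the difference between models at TP1 recovered 6%. The real 60577 tests called far more genes than were changed here, so the 60577 shares need not hold for them. The 0 calls in HGS2 therefore do not show that no gene changed.

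Cdkn1a had the largest HGS2 estimates of the 10 genes at TP1 and TP2. At TP1 it was at 46.1, 21.3 and 26.3 CPM in controls and at 68.6, 96.6 and 83.5 CPM after treatment, and at TP2 at 12.8, 47.5, 36.5 and 29.7 CPM against 83.9, 79 and 81.9 CPM. The groups did not overlap at either time, and the log2 fold changes were 1.44 ± 0.46 (edgeR, adjusted p = 0.999) and 1.36 ± 0.42 (adjusted p = 0.588). At TP3 the treated tumors spread from 36.3 to 105 CPM, and the estimate was 0.93 ± 0.42 (adjusted p = 1). Mdm2 was at 54.2, 41.8 and 51.6 CPM in TP1 controls against 70, 70.6 and 67.2 CPM, and at 52.1, 46.2, 56.3 and 46.9 CPM in TP2 controls against 59.7, 71.4 and 66.6 CPM. These too did not overlap, with log2 fold changes of 0.52 ± 0.11 (adjusted p = 0.999) and 0.38 ± 0.11 (adjusted p = 0.588), and at TP3 Mdm2 was at 34.6, 51.6, 48.3 and 48 CPM (-0.03 ± 0.11, adjusted p = 1).

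Every treated HGS2 tumor lay above every control for 4 genes at TP1 (Cdkn1a, Mdm2, Ccng1 and Zmat3), against 2.67% of all genes, and for 4 genes at TP2 (Cdkn1a, Mdm2, Bax and Sesn2), against 6.39%. For 0 of the 10 genes did every treated tumor lie below every control, against 412 of all 16241 genes at TP1 and 1094 at TP2. Ccng1 was at 70, 91.5 and 83.3 CPM in TP1 controls and at 121, 101 and 123 CPM after treatment (log2 fold change 0.51 ± 0.18, adjusted p = 0.999). Sesn2 was at 13.2, 25.7, 21.5 and 24.4 CPM in TP2 controls and at 30.4, 36.9 and 33 CPM after treatment (0.65 ± 0.22, adjusted p = 0.588). Averaged over TP1 and TP2, a comparison added after the values were seen, the HGS2 estimates were 1.40 ± 0.32 for Cdkn1a and 0.45 ± 0.08 for Mdm2 (adjusted p = 0.549 for both), with 0 genes past the threshold by edgeR (0% in each direction), 1468 genes at an unadjusted p-value below 0.05, 0 by limma-voom and 13 by DESeq2. DESeq2 called Cdkn1a (adjusted p = 0.0334) and Mdm2 (adjusted p = 0.000359) in that average. The same average in 60577 held all 10 genes, against 29.6% of all genes higher and 28.6% lower.

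Trp53 and Eda2r overlapped between treated and control HGS2 tumors at both times. Trp53 ranged from 14.7 to 30.2 CPM in TP1 controls and from 17.6 to 34.4 CPM in TP1 treated tumors, and from 13.6 to 40.5 CPM against 24.1 to 31.6 CPM at TP2. The log2 fold changes were 0.37 ± 0.39 and 0.28 ± 0.36 (adjusted p = 0.999 and 0.851). Eda2r was at 2.99, 2.46 and 3.18 CPM in TP1 controls and at 1.44, 3.94 and 10.4 CPM in treated tumors (0.90 ± 0.74, adjusted p = 0.999), so that 1 treated tumor reached the range of the treated 60577 tumors (8.34 to 33.3 CPM). Between treated HGS2 tumors of TP2 and TP1, of TP3 and TP2, and between controls of TP2 and TP1, 0 genes passed edgeR's threshold (0% in each direction), with 152, 1690 and 569 genes at an unadjusted p-value below 0.05, 0 by limma-voom and 1, 144 and 8 by DESeq2. From TP2 to TP3 9 of the 10 estimates were below 0, the farthest from 0 being that of Eda2r (-0.69 ± 0.74, adjusted p = 0.771) and the one with the lowest adjusted p that of Mdm2 (-0.41 ± 0.11, adjusted p = 0.411).

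The difference between the responses of the models was tested as an interaction. At TP1 all 10 estimates (HGS2 response minus 60577 response) were below 0, and Bax (-0.99 ± 0.24, edgeR, adjusted p = 0.0307) and Mdm2 (-0.84 ± 0.21, adjusted p = 0.0361) passed the threshold, against 1.16% of all genes lower and 0.616% higher. Zmat3 (-0.87 ± 0.24, adjusted p = 0.0565), Sesn2 (-1.30 ± 0.39, adjusted p = 0.0727) and Phlda3 (-1.18 ± 0.36, adjusted p = 0.0785) were next. The Cdkn1a estimate was -2.08 ± 0.80 (adjusted p = 0.159). Library size in place of TMM or no filter on low counts left 0 of the 10 at TP1. Without 60577 TP1 control replicate 1 or 3, or TP1 treated replicate 1 or 3, 0 passed as well, and 4 passed without 60577 TP2 control replicate 2. At TP2 Eda2r (-3.41 ± 0.84, adjusted p = 0.0151) and Zmat3 (-0.80 ± 0.23, adjusted p = 0.0274) passed, against 4.33% of all genes lower and 6.00% higher. With 60577 TP2 control replicate 2 left out, 0 of the 10 passed at TP2, Eda2r having -3.36 (adjusted p = 0.0502) and Zmat3 -0.75 (adjusted p = 0.0887). The sign of the Cdkn1a estimate at TP2 rested on that control, at 0.89 ± 0.74 (adjusted p = 0.433) with it and -0.90 (adjusted p = 0.352) without it.

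Without chemotherapy, HGS2 control tumors carried more of 6 of the 10 genes than 60577 control tumors, with both time points averaged, against 28.1% of all genes higher and 23.4% lower. Sesn2 was at 13.2 to 36.2 CPM in the 7 HGS2 controls (median 24.4) and at 9.55 to 22.3 CPM in the 6 60577 controls (median 10), a log2 fold change of 1.03 ± 0.19 (edgeR, adjusted p = 7.64e-05). Zmat3 was at 51.9 to 79.1 CPM (median 64.7) against 31.6 to 38.8 CPM (median 35.4) without overlap, a log2 fold change of 0.86 ± 0.12 (adjusted p = 1.62e-06). Phlda3 differed by 0.93 ± 0.18 (adjusted p = 0.00011), Trp53 by 0.64 ± 0.23 (adjusted p = 0.0199), Bax by 0.54 ± 0.12 (adjusted p = 0.000425) and Ccng1 by 0.47 ± 0.15 (adjusted p = 0.0107) on the log2 scale. Cdkn1a did not pass with 60577 TP2 control replicate 2 in the fit (0.08 ± 0.39, adjusted p = 0.885) and was higher in HGS2 without it (0.97, adjusted p = 0.00857). Without TMM the median of all genes moved by -0.25 and Trp53, Ccng1 and Bax no longer passed. Macrophage markers summed to 1720 to 3969 CPM in HGS2 controls and 783 to 1625 CPM in 60577 controls, epithelial markers to 17.9 to 543 CPM and 1085 to 1908 CPM, and fibroblast markers to 27162 to 133569 CPM and 5630 to 9839 CPM, with no overlap in any of the 3 sums. By edgeR 7 of 7 macrophage, 6 of 6 fibroblast, 8 of 8 pancreas acinar, 4 of 6 T cell, 2 of 4 B cell and 2 of 6 adipocyte markers were higher in HGS2 controls, and 4 of the 6 epithelial markers tested were lower. The pancreas acinar sums overlapped, at 8.98 to 111911 CPM in HGS2 controls and 5.12 to 1300 CPM in 60577 controls. They were highest in HGS2 TP1 control replicate 3 (60668 CPM) and TP2 control replicate 2 (111911 CPM). The part of these markers in the difference was not tested.

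In the cultured lines, where leukocyte markers were near 0, 9 of the 10 genes passed the filter on low counts and Eda2r did not (0.348 and 0.637 CPM in 60577, 0.139 and 0.229 CPM in HGS2). Sesn2 was at 20 and 17.4 CPM in the 60577 line and at 51.6 and 69.3 CPM in the HGS2 line. It was the only member past the threshold (log2 fold change 1.70 ± 0.22, edgeR, adjusted p = 0.00933), against 9.10% of all 13742 genes higher and 9.82% lower, and it was lost without either 60577 culture (highest adjusted p = 0.0904). Trp53 was at 3.36 and 2.9 CPM in the 60577 line and at 1.07 and 1.26 CPM in the HGS2 line (-1.41 ± 0.39, adjusted p = 0.0626). Phlda3 was at 33.8 and 42.1 CPM against 16.6 and 22.8 CPM (-0.94 ± 0.24, adjusted p = 0.0511). Cdkn1a was at 15.2 and 12.9 CPM against 5.16 and 9.33 CPM (-0.94 ± 0.34, adjusted p = 0.113). Mdm2 (56.2 and 55.3 CPM, against 50.4 and 62.8 CPM) and Bax overlapped, with log2 fold changes of 0.03 ± 0.18 and -0.08 ± 0.27. Bbc3, at 8.79 and 9.11 CPM against 8.56 and 6.87 CPM, did not pass the threshold (-0.20 ± 0.26, adjusted p = 0.629). Zmat3 (43.3 to 46.4 CPM against 55.3 to 57.5 CPM) and Ccng1 (67.6 to 72.9 CPM against 87 to 88.7 CPM) had higher levels in the HGS2 line and did not pass either. Without HGS2 line replicate 2, 3 of the genes passed.

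Tumors, which hold host cells, were then set against the line of the same model. The widest gap was in Trp53, at 10.7 to 18.2 CPM in 60577 controls against 3.36 and 2.9 CPM in the line, and at 13.6 to 40.5 CPM in HGS2 controls against 1.07 and 1.26 CPM. The log2 fold changes were 2.20 ± 0.41 (edgeR, adjusted p = 0.000718) and 4.23 ± 0.47 (adjusted p = 1.24e-05), and Trp53 passed in both models with each of the 17 libraries left out in turn. Eda2r was higher in tumors in both models as well, by 1.56 ± 0.50 (adjusted p = 0.0178) in 60577 and 3.70 ± 0.59 (adjusted p = 0.000174) in HGS2. In HGS2 Cdkn1a was at 12.8 to 47.5 CPM in tumors against 5.16 and 9.33 CPM (2.09 ± 0.80, adjusted p = 0.0392) and Phlda3 at 30.2 to 77.7 CPM against 16.6 and 22.8 CPM (1.38 ± 0.34, adjusted p = 0.0036). Cdkn1a passed in 10 of 17 fits with a library left out, and Eda2r of 60577 in 16, the exception being 60577 line replicate 1 (adjusted p = 0.174).

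Other targets were as high in the lines or higher. Sesn2 was lower in HGS2 tumors than in the HGS2 line, at 13.2 to 36.2 CPM against 51.6 and 69.3 CPM (log2 fold change -1.34 ± 0.29, edgeR, adjusted p = 0.00154). Bax was at 16.2 to 23.7 CPM in 60577 controls against 36.1 and 32.5 CPM in the 60577 line (-0.73 ± 0.18, adjusted p = 0.00495), and Mdm2 at 36.4 to 55 CPM against 56.2 and 55.3 CPM (-0.35 ± 0.13, adjusted p = 0.0432). Bax too was lost without 60577 line replicate 1 (adjusted p = 0.0599), and Mdm2 passed in 9 of 17 fits with a library left out. Sesn2 had an estimate of -0.65 ± 0.31 (adjusted p = 0.0856) in 60577, and of -0.91 (adjusted p = 0.00641) without TP2 control replicate 2. In all, 2 genes were higher and 2 lower in 60577 tumors than in the line, against 29.7% of all 15719 genes higher and 24.4% lower, and 4 higher and 1 lower in HGS2, against 31.1% and 25.9%. Ccng1, Zmat3 and Bbc3 passed in neither model, with log2 fold changes between -0.40 and 0.16. Proliferation markers were at 516 to 686 CPM in 60577 controls against 1339 and 1711 CPM in the line. Tumors and lines were also deposited as separate sets of counts. Cell makeup, culture and count set cannot be told apart in these differences.

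**Figure D4:**
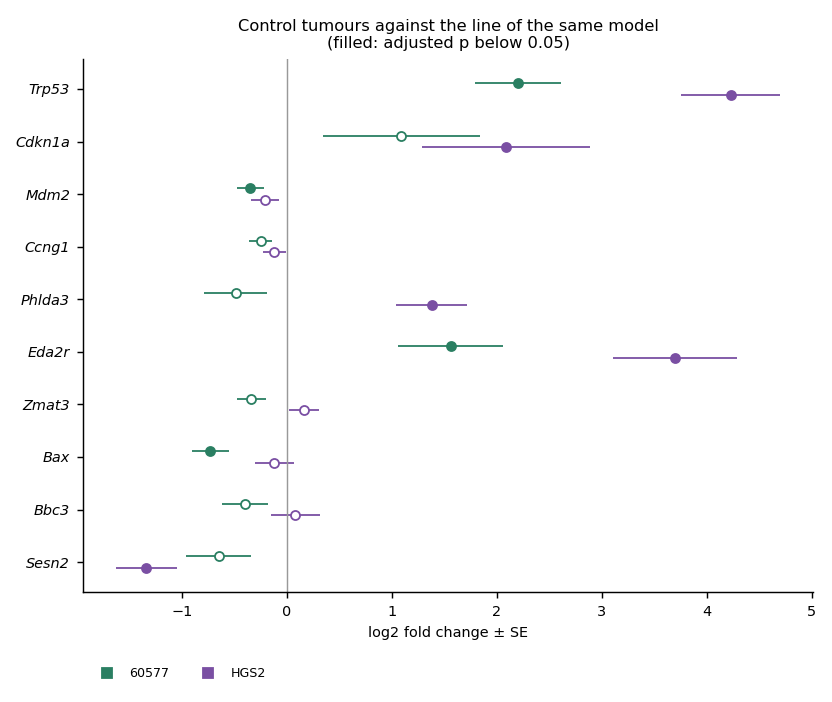
Log2 fold changes (± SE) of the 10 genes in control tumors against the line of the same model, 60577 in green and HGS2 in purple, with filled points past an adjusted p-value of 0.05. Trp53 and Eda2r lie above 0 in both models (2.20 and 1.56 in 60577, 4.23 and 3.70 in HGS2), and Sesn2 lies below 0 (-0.65 and -1.34), past the threshold only in HGS2.

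The order of the groups differed among the genes. The 2 lines had the lowest means of Trp53 (1.17 CPM in HGS2, 3.13 in 60577), of Eda2r and of Cdkn1a, while the HGS2 line had the highest mean of Sesn2 (60.4 CPM) and the next group did not overlap it. For Trp53 the TP3 treated 60577 tumors (41.6 CPM) stood above all others in mean without overlap with the next group, and the 9 other tumor groups (14 to 28.3 CPM) each overlapped their neighbor in the order. For Cdkn1a the TP1 treated 60577 tumors (167 CPM) led without overlap with the next group. For Eda2r the 3 treated 60577 groups (17.4 to 27.6 CPM) overlapped each other, and the lines lay below all tumors. For Bbc3 and Mdm2 every group overlapped the next.

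Of 50 further genes of the pathway (14 p53 regulators and 36 other targets), 48 were tested in tumors. In 60577 11 were higher and 10 lower at TP1, 12 and 16 at TP2, and 10 and 20 at TP3, with medians of -0.01, -0.01 and -0.13 on the log2 scale beside -0.00, 0.03 and -0.00 over all genes. Over all genes 17.1% were higher and 16.2% lower at TP1, 29.2% and 29.2% at TP2, and 25.3% and 26.0% at TP3. Of 13 apoptosis targets 5 were higher and 1 lower at TP1, 6 and 3 at TP2, and 4 and 3 at TP3. Of 13 regulators 0 were higher and 5 lower at TP1, 1 and 4 at TP2, and 1 and 6 at TP3. Of 7 cell cycle targets 2 were higher and 2 lower at TP1, 1 and 4 at TP2, and 1 and 5 at TP3. The 5 repair genes had 0 higher and 1 lower, 1 and 1, and 1 and 3 at these times, and the 10 genes of metabolism and stress 4 and 1, 3 and 4, and 3 and 3. These lists are small, and nothing particular to them was read from the counts.

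By the size of their change at TP1 of 60577, Dram1, a lysosomal membrane protein of autophagy (2.14 ± 0.30, edgeR, adjusted p = 0.000125), Gdf15, a stress-induced cytokine (2.03 ± 0.47, adjusted p = 0.00446), and Sfn, which encodes 14-3-3 sigma (1.71 ± 0.53, adjusted p = 0.0226), led the genes that were higher. Chek1, the checkpoint kinase of replicating cells, was lower by -1.67 ± 0.18 at TP1 (adjusted p = 2.25e-05), -2.04 ± 0.17 at TP2 and -2.53 ± 0.17 at TP3. Gtse1 (-2.80 ± 0.18) and Ckap2 (-2.65 ± 0.27), both mitotic microtubule proteins, and Ddit4, an inhibitor of mTORC1 (-2.27 ± 0.25), were also among the lowest at TP3. The proliferation markers, of which 6 of 6 were lower at TP1, TP2 and TP3, moved with Chek1, Gtse1 and Ckap2, and their part was not tested. From TP1 to TP2 in treated tumors Gtse1 (-1.26 ± 0.17), Plk2 (-1.12 ± 0.19), Gpx1 (-1.04 ± 0.20) and Dram1 (-0.81 ± 0.27) fell, and from TP2 to TP3 Pidd1 fell (-1.46 ± 0.24) and Rps27l rose (1.16 ± 0.38). In HGS2 0 of the 48 passed at any time, and the responses differed between models for Dram1 (-1.84 ± 0.45) and Steap3 (-1.77 ± 0.41) at TP1 and for Sfn (-2.93 ± 0.61), Gtse1 (2.12 ± 0.56), Chek1 (2.01 ± 0.41) and Ckap2 (1.97 ± 0.53) at TP2.

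Sfn, Perp and Gadd45a were among the 4 widest gaps between models both in tumors and in lines. Sfn was higher in HGS2 by 2.98 ± 0.33 in control tumors and 3.20 ± 0.43 in lines, while Perp (-2.22 ± 0.55 and -2.47 ± 0.35) and Gadd45a (-2.17 ± 0.32 and -1.90 ± 0.29) were lower. Gls2, a mitochondrial glutaminase, was higher in HGS2 tumors by 3.32 ± 1.18, and Pmaip1, the BH3-only protein Noxa, lower in the HGS2 line by -2.78 ± 0.51. Against their lines, tumors held more Steap3, a metalloreductase of iron uptake, by 2.36 ± 0.25 in 60577 and 3.57 ± 0.27 in HGS2. Dram1 (3.09 ± 0.37) and Gdf15 (1.99 ± 0.77) were higher and Hipk2, a kinase of p53, lower (-1.44 ± 0.22) in HGS2 tumors than in the line, and in 60577 Trp63 was higher (2.46 ± 0.81) and Perp (-1.97 ± 0.72) and Rps27l (-1.74 ± 0.26) lower.

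The genes whose pattern over tumors was most like that of Trp53 were sought by the smaller of 2 Pearson correlations of log2 CPM, over the 17 60577 tumors and over the 16 HGS2 tumors, among 13926 protein-coding genes. They were Itgal, the alpha chain of a leukocyte integrin (r = 0.94 and 0.93), Wdfy4, which dendritic cells use in cross-presentation (0.92 and 0.93), and Gimap4, a lymphocyte GTPase (0.92 and 0.94). For Cdkn1a they were Sesn2 (0.94 and 0.78), Dus2 (0.92 and 0.76) and Zbtb7b (0.76 and 0.75). The tumors behind these correlations share treatment groups and cell makeup, and no test was made.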

How the data were processed

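RNA sequencing of 34 omental tumors and 4 cell line cultures was analyzed. The authors deposited RSEM expected counts (estimated counts, GRCm38), made from reads trimmed with Trim Galore 0.6.5 and mapped with STAR 2.7.0f according to the submitters' processing notes, with no filter or normalization. Counts were rounded, and genes with at least 1 CPM in 25% of the libraries of a fit were kept (16241 in tumors, 13742 in lines, 15719 in control tumors with lines). edgeR 4.0.16 in R 4.3.3 was used with TMM scaling, quasi-likelihood tests (two-sided) and Benjamini-Hochberg adjustment over all genes of a fit, with a threshold of 0.05. The 5 groups of a model were fitted together, both models jointly for differences between models, the 4 line libraries alone, and the 13 control tumors with the lines for tumor against line. SE is the absolute log2 fold change divided by the square root of F. Groups came from the labels, and 0 columns lacked a sample. The scripts were tested on simulated data. Symbols, positions and merged exon lengths came from GENCODE M21 (55227 of 55487 IDs matched). Alternatives were DESeq2 1.42.0, limma-voom (limma 3.58.1), other scalings, filters and sample sets, and each library left out. Figures used matplotlib 3.10.9.

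The 10 genes, the lists and the 2 averaged comparisons were chosen with earlier results of these data known. Named were the 10 genes in each comparison, up to 4 genes of the other pathway lists with the largest change past the threshold, and the 3 genes nearest to Trp53 and to Cdkn1a. Replicates of a group differed by more than counting error (chi-square per degree of freedom at least 10). The labels name no animal or culture for a sample, although the paper speaks of replicate mice for its tumor expression data. The p-values measure the spread between these samples, which may be partly technical, above all in the lines.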

Additional observations from a re-analysis of the deposited data

Results flagged for a closer look

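In groups of 4 tumors, 2 of 40 gene and group combinations held a tumor far from the other 3, and chance gives about 5%. Cdkn1a was at 45.8 CPM in 60577 TP2 treated replicate 3, below the other 3 treated tumors (90.9 to 100 CPM). Ccng1 was at 104 CPM in HGS2 TP3 treated replicate 3, above the other 3 (84.7 to 86.7 CPM).

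The response to treatment differed between the models for 4 results by edgeR's interaction test. At TP1 the HGS2 response was lower than that of 60577 for Mdm2 (log2 difference -0.84, adjusted p = 0.0361) and Bax (-0.99, adjusted p = 0.0307), against 1.16% of all genes. At TP2 it was lower for Eda2r (-3.41, adjusted p = 0.0151) and Zmat3 (-0.80, adjusted p = 0.0274), against 4.33% of all genes. Each of the 4 results was lost under some other setting or with a library left out, as given above. Strain, injected line and day of treatment differ between the models and cannot be told apart in these differences.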

How the results depend on the processing

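No setting turned the direction of a called gene. The main counts were 10, 8 and 7 of the 10 genes for 60577 at TP1, TP2 and TP3, and with each library left out they were 10, 7 to 10, and 5 to 9. With a log2 fold change above 1 also required, the counts were 1 at TP2 of 60577, 0 for both steps between treated 60577 tumors, 0 and 1 for the differences in response at TP1 and TP2, 1 for HGS2 against 60577 controls, 2 for 60577 tumors against the line, and 6 for the 60577 average. In 60577 Trp53 at TP1, and Bbc3 and Bax at TP3, also fell short of that limit. For 60577 treated TP2 against TP1 (3 genes), fitting only the 2 groups left 0, both models together 1, and leaving out a library 0 to 5. For TP3 against TP2 (5 genes), library size alone gave 3, no filter 1, the 2 groups alone 2, both models together 1, and a library left out 1 to 5. For the difference in response at TP1 (2 genes), library size alone or no filter gave 0, DESeq2 5, the replicate block 1, all 17 HGS2 tumors 1, and a library left out 0 to 4. At TP2 (2 genes), library size alone, no filter and the removal of the 3 tumors rich in pancreas genes (added after seeing the data) gave 1, and a library left out 0 to 2. HGS2 against 60577 controls gave 3 with library size alone. The lines gave 2 with library size alone, 4 with no filter, 3 with DESeq2 and 0 to 3 with a culture left out, where the lone culture is assumed to vary like the others. For 60577 tumors against the line, library size alone gave 2 and a library left out 1 to 5. Within HGS2 tumors, DESeq2 was the only setting run that called any of the 10 genes, 1 for treated TP3 against TP2 and 2 for the average. The order of the genes per kb over tumors held for 6 of 10 with the longest transcript in place of merged exons. The causes were not tested.

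Samples with equal replicate numbers did not deviate together (median correlation -0.057 in 60577, -0.0656 in HGS2 and -0.153 in the lines), so the numbers do not pair them. Apart from the 1 in place of 2 at TP1 above, the replicate block moved no count by over 1.5 times, and crossing the line numbers (added after seeing the data) gave 1 gene as before. DESeq2 gave Cdkn1a no adjusted p in 60577. Over genes and comparisons, 1518 results under other settings kept their side of the threshold, 15 passed it and 43 lost it, and with a library left out these numbers were 3555, 30 and 91. Library size alone moved the median of all genes by -0.25 to 0.27, and no filter moved it by 0.48 for HGS2 tumors against the line. Low counts limit Eda2r in the lines most (0.139 to 0.637 CPM). Trp53 in the HGS2 line (1.07 to 1.26 CPM) and Eda2r in 60577 controls (0.898 to 2.48 CPM) were low as well.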
